A study of Bos taurus with 6 samples.

Results

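The genes described here encode the subcortical maternal complex, and they were followed in bovine late morulae after knockdown of NOTCH1 or RBPJ. The members are 6 symbols, TLE6, OOEP, NLRP5, KHDC3L, PADI6 and NLRP2, chosen by exact match of the gene symbol in the deposited table of scaled read counts. Of these 6, 5 had a row among 15314 named genes, and NLRP2 was not analysed here. All 5 averaged 10 or more across the 6 libraries, as did 12070 named genes in all, and these were the genes tested. Embryos of all 3 groups came from in vitro fertilization, received a small interfering RNA and were collected on day 6. The control group (NC) had a nonspecific small interfering RNA, and the NOTCH1_KD and RBPJ_KD groups had one against NOTCH1, a receptor of the NOTCH pathway, or RBPJ, the DNA-binding protein through which activated receptors act. Each group had 2 libraries of polyadenylated RNA, each from a pool of 15 embryos, so a value is the average of a pool. No uninjected group is used here.

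The subcortical maternal complex is a protein assembly beneath the surface of the oocyte that persists through cleavage. Its messenger RNAs are made and stored during oocyte growth and are mostly degraded as the embryonic genome takes over, while the proteins last longer. In mice, loss of a core component in the mother stops embryos during cleavage, and in people variants of these genes are known in early embryo arrest, molar pregnancy and disturbed imprinting. TLE6, OOEP and NLRP5 form the core, KHDC3L binds to it, and PADI6 and NLRP2 are associated with it and with the lattices that fill the oocyte cytoplasm.

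The libraries held about 9620000 to 13700000 reads. In the scaled values 1 read was worth about 0.769 in replicate 1 of the RBPJ knockdown and 1.02 to 1.09 in the other libraries. Values and read numbers were thus close except in that library, where a TLE6 value of 232 stood for about 302 reads. RBPJ was lower in both RBPJ knockdown libraries (log2 fold change -1.96, standard error 0.18, limma adjusted p = 0.00143). NOTCH1 had 69.6 and 140 in the control, 48.0 and 49.5 in the NOTCH1 knockdown and 50.0 and 125 in the RBPJ knockdown. Both libraries of its own knockdown lay below both control libraries, as in 17.2% of the genes tested. It did not pass there (log2 fold change -1.003, standard error 0.42, limma adjusted p = 0.634), and stood at -0.51 without replicate 2 of the control. The NOTCH1 group therefore rests on its label. Of 10 embryo markers, 9 had a row and all 9 had a mean of at least 10, among them POU5F1, CDX2 and CDH1. Of 15 cumulus and granulosa cell markers, 13 had a row and 8 a mean of at least 10. Their summed scaled count was 736 and 844 in the control, 716 and 841 in the NOTCH1 knockdown and 820 and 858 in the RBPJ knockdown. The highest were COL1A1 (286 to 346), CYP19A1 (114 to 172) and COL1A2 (111 to 166), present in every library, while FST and TNFAIP6 were at 0 in some libraries. Markers of spermatozoa (3 of 5 with a row) summed to 9.82 to 26.6 over the libraries. Blood cell markers (5 of 5) summed to 1010 to 1423, nearly all of it HBA, while HBB reached at most 8.63 and PTPRC and CD3E were at 0 in some libraries.

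TLE6, a relative of the Groucho corepressors that serves as a scaffold of the complex, had the steadiest values of the 5. Its scaled counts were 290 and 219 in the control, 197 and 239 in the NOTCH1 knockdown and 232 and 245 in the RBPJ knockdown. The highest value was a control library and the lowest a NOTCH1 knockdown library, and the groups overlapped. The group means were 254 ± 49.9 (SD, n = 2), 218 ± 29.7 (SD, n = 2) and 238 ± 8.72 (SD, n = 2). Relative to the control, the log2 fold change was -0.21 in the NOTCH1 knockdown (95% interval -0.63 to 0.20) and -0.08 in the RBPJ knockdown (95% interval -0.49 to 0.34). These were the narrowest intervals of the 5 members.

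OOEP, a small protein with a KH-type fold that joins TLE6 and NLRP5 in the core, had lower values in both knockdowns. The scaled counts were 74.0 and 113 in the control, 42.8 and 65.9 in the NOTCH1 knockdown and 67.2 and 72.9 in the RBPJ knockdown. All 4 knockdown libraries lay below both control libraries, although replicate 2 of the RBPJ knockdown and replicate 1 of the control were nearly equal. The group mean was 0.582 of the control mean in the NOTCH1 knockdown and 0.750 of it in the RBPJ knockdown. On the log2 scale the differences were -0.77 (standard error 0.31) and -0.38 (standard error 0.31), and neither passed over all genes (limma adjusted p = 0.626 and 0.983). In the bulk RNA of a pool, fewer cells or embryos with a transcript and less of it per cell cannot be told apart.

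NLRP5, also called MATER, is a large leucine-rich repeat protein of the NLRP family and was a low transcript here. The scaled counts were 21.1 and 21.8 in the control, 17.4 and 11.8 in the NOTCH1 knockdown and 13.8 and 10.3 in the RBPJ knockdown. Again all 4 knockdown libraries lay below both control libraries. These values stand for about 9.99 to 20.04 reads per library, so that counting alone gives a standard deviation of 22.3% to 31.6% of a value. The log2 fold changes, -0.55 in the NOTCH1 knockdown and -0.80 in the RBPJ knockdown, each had 0.48 as standard error and did not pass (limma adjusted p = 0.851 and 0.983).

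KHDC3L, a KH-domain protein that binds the core and takes part in protecting the genome of the early embryo, had the largest difference of the 5 in both knockdowns. The scaled counts were 118 and 250 in the control, 48.0 and 127 in the NOTCH1 knockdown and 51.6 and 134 in the RBPJ knockdown. Replicate 2 was 2.12, 2.66 and 2.59 times replicate 1 in the control, NOTCH1 knockdown and RBPJ knockdown, so that replicate 2 of each knockdown lay above replicate 1 of the control and the groups overlapped. Read against the control library of the same number, the NOTCH1 knockdown stood at 0.406 and 0.509 and the RBPJ knockdown at 0.436 and 0.535. The 4 ratios thus lay close together although the libraries did not. Ratios of the same number share a control library, so they are not independent, and the labels do not give this pairing. About 47.0 to 230 reads lay behind each KHDC3L value, with a counting standard deviation of 6.597% to 14.6%.

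PADI6, a member of the peptidylarginine deiminase family needed for the cytoplasmic lattices, was low and varied within groups. The scaled counts were 20.1 and 31.6 in the control, 8.17 and 25.8 in the NOTCH1 knockdown and 16.9 and 33.9 in the RBPJ knockdown. The groups overlapped, and the highest value belonged to replicate 2 of the RBPJ knockdown. The log2 fold change was -0.74 in the NOTCH1 knockdown (95% interval -1.97 to 0.49) and -0.07 in the RBPJ knockdown (95% interval -1.30 to 1.16). About 8.002 to 33.0 reads per library, with a counting standard deviation of 17.4% to 35.3%, limit what can be seen for this gene.

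**Figure D1:**
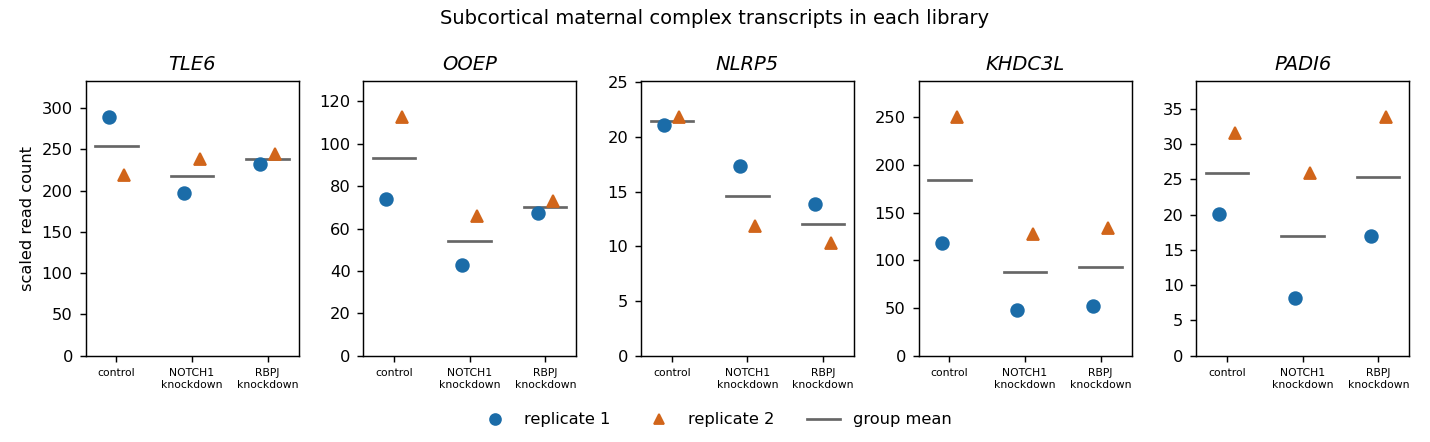
Scaled read count (vertical axis, from 0, a separate scale for each gene) of the 5 members in the 6 libraries, by group; circles are replicate 1, triangles replicate 2 and lines group means. KHDC3L and PADI6 have replicate 2 above replicate 1 in every group, OOEP and NLRP5 have all 4 knockdown libraries below both control libraries, and TLE6 stays between 197 and 290.

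In NOTCH1 knockdown embryos all 5 members were lower than in the control by sign, with a median log2 fold change of -0.74 beside 0.0059 for all 12070 genes tested. The range ran from -0.21 for TLE6 to -1.13 for KHDC3L. By sign 48.9% of all genes tested were lower. For OOEP and NLRP5 all 4 libraries of both knockdowns lay below both control libraries, where 7.93% of the genes tested did so. KHDC3L joined them in having each knockdown library below the control library of its own number, a pattern of 14.1% of the genes tested. OOEP and NLRP5, 2 of 5 members, had both knockdown libraries below both control libraries, where 17.2% of the genes tested did. limma called 0 of 5 members, and 0.0% of all genes tested, at an adjusted p below 0.05. At an unadjusted p below 0.05 there were 880 genes (7.29%), KHDC3L and OOEP among them. Leaving out 1 library moved KHDC3L to -0.43 (without replicate 1 of the NOTCH1 knockdown), -0.59 (without replicate 2 of the control), -1.66 (without replicate 1 of the control) or -1.82 (without replicate 2 of the NOTCH1 knockdown). OOEP was at -0.47 without replicate 1 of the NOTCH1 knockdown, also at -0.47 without replicate 2 of the control, and at -1.08 without replicate 2 of the NOTCH1 knockdown. NLRP5 was at -0.29 without replicate 2 of the NOTCH1 knockdown.

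With the replicate number as a block, which compares libraries of the same number, KHDC3L fell in the NOTCH1 knockdown. The standard error of its log2 fold change, -1.13, was then 0.22 in place of 0.50 (limma adjusted p = 0.0163, in place of 0.660). The 95% interval ran from -1.59 to -0.66. KHDC3L was 1 of 5 members called by this fit, which called 138 genes, or 1.14% of those tested, 49 of them (0.406%) downward. OOEP, at a standard error of 0.27 with the block, stood at -0.77 and did not pass (limma adjusted p = 0.193), and the adjusted p of PADI6, NLRP5 and TLE6 lay between 0.532 and 0.712. The call of KHDC3L with the block held in 10 of 14 further settings, chosen after the values were seen. It was lost without replicate 1 of the control (limma adjusted p = 0.0735) or replicate 1 of the NOTCH1 knockdown (limma adjusted p = 0.0555), without the filter on low genes (limma adjusted p = 0.0784) and without the variance trend (limma adjusted p = 0.398).

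In RBPJ knockdown embryos all 5 members were again lower by sign, with a median log2 fold change of -0.38 beside -0.0018 for all genes tested, of which 50.3% were lower. This comparison uses the same control libraries as that of the NOTCH1 knockdown, so the directions are not independent. OOEP and NLRP5 had both knockdown libraries below both control libraries, where 16.8% of the genes tested did. KHDC3L was at -1.04 (log2 fold change, standard error 0.50, limma adjusted p = 0.983), and TLE6 and PADI6 stood at -0.08 and -0.07. Leaving out 1 library moved KHDC3L to -0.36 (without replicate 1 of the RBPJ knockdown), -0.50 (without replicate 2 of the control), -1.58 (without replicate 1 of the control) or -1.72 (without replicate 2 of the RBPJ knockdown). OOEP moved to -0.079 without replicate 2 of the control and to -0.68 without its replicate 1. limma called 0 of 5 members. It called 1 gene, RBPJ itself, or 0.00829% of those tested, and 524 genes (4.34%), none of them a member, had an unadjusted p below 0.05. With the replicate block the standard error of KHDC3L was 0.22, with an interval from -1.51 to -0.57 and a limma adjusted p of 0.0870, which did not pass where 12 genes (0.0994%) did. In 3 of 14 further settings with the block it did pass, namely without replicate 2 of the control and without either NOTCH1 knockdown library, the smallest limma adjusted p being 0.00201.

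**Figure D2:**
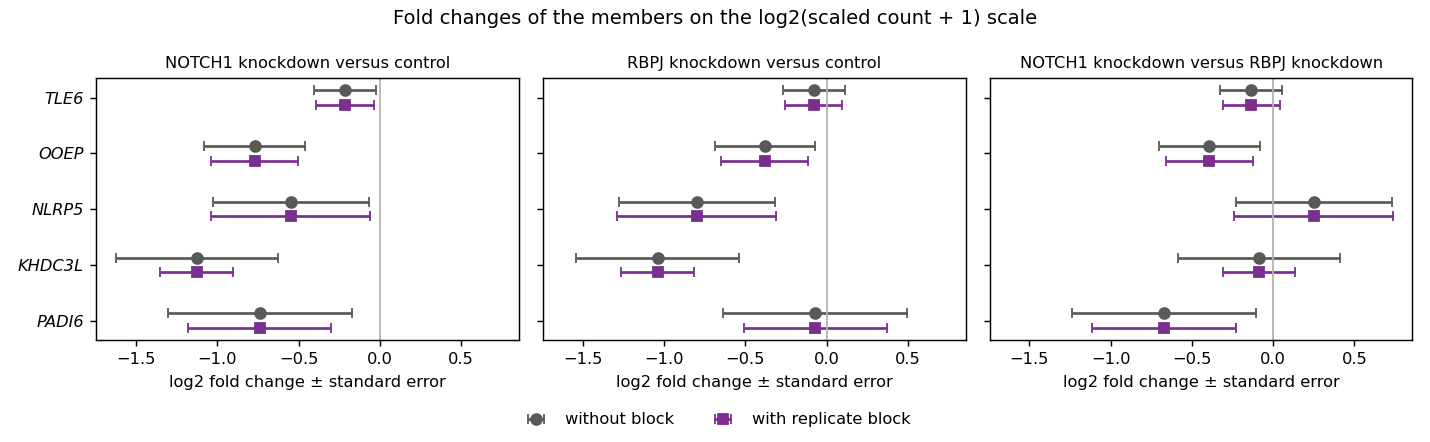
Log2 fold change of each member (horizontal axis, log2(scaled count + 1) scale) in the 3 comparisons, with bars of 1 standard error, from the fit without a block (grey circles) and with the replicate number as a block (purple squares). The estimates are equal in both fits; the standard error of KHDC3L falls from 0.50 to 0.22, while that of NLRP5 is 0.48 and 0.49.

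Set directly against each other, the NOTCH1 and RBPJ knockdowns did not differ in any of the 5 members past the threshold, with 4 of 5 lower in the NOTCH1 knockdown by sign where 47.3% of the genes tested were. limma called 0 of 5 members and 1 gene in all, or 0.00829%, namely RBPJ, with 439 genes (3.64%) at an unadjusted p below 0.05. With the block it called 15 genes (0.124%) and again none of the members. KHDC3L was nearest to no difference, at a log2 fold change of -0.09 between the NOTCH1 and the RBPJ knockdown. With the block its 95% interval ran from -0.55 to 0.38, and without it from -1.17 to 0.999. OOEP was the member whose libraries did not overlap, as in 15.5% of the genes tested in this direction, with 42.8 and 65.9 in the NOTCH1 knockdown below 67.2 and 72.9 in the RBPJ knockdown (log2 fold change -0.39, 95% interval -1.06 to 0.28). For PADI6 the interval, from -1.90 to 0.56, leaves room for a large difference. NLRP5 was the member higher in the NOTCH1 knockdown by sign, by 0.25 (95% interval -0.80 to 1.29).

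The members differed in how their values moved between libraries of a group. KHDC3L was higher in replicate 2 than in replicate 1 by 1.08 (control), 1.39 (NOTCH1 knockdown) and 1.36 (RBPJ knockdown) on the log2 scale. PADI6 was higher in replicate 2 by 0.63, 1.55 and 0.96, and OOEP by 0.60, 0.61 and 0.12. NLRP5 stood at 0.05, -0.52 and -0.40, and TLE6 at -0.40, 0.28 and 0.07, with no common direction. These 3 of 5 members with replicate 2 above replicate 1 in every group compare with 18.2% of all genes tested. In the blocked fit the difference between numbers was 1.27 for KHDC3L (standard error 0.18, limma adjusted p = 0.000547), where 337 genes or 2.79% passed, and it did not pass for PADI6 (1.05, limma adjusted p = 0.128) or OOEP (0.44, limma adjusted p = 0.316). This test was added after the values were seen. The use of the replicate number as a pairing also came from these data. The adjusted p of KHDC3L thus restates the pattern above and is no independent support for it.

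Other sums moved with the replicate number too. The 9 embryo markers summed to 48027 and 45732 in replicates 1 and 2 of the control, 59566 and 52381 in the NOTCH1 knockdown and 54524 and 43184 in the RBPJ knockdown. This sum was higher in replicate 1 in each group, with the largest differences in KRT8 (11997 and 10630, 15897 and 12502, 16107 and 7578) and KRT18 (9355 and 6298, 11454 and 8816, 10168 and 5878). LIN28A and GATA3 were also higher in replicate 1 in each group. TFAP2C was higher in replicate 2 in each group (3658 and 4079, 4017 and 4503, 3829 and 4061). POU5F1, NANOG, CDX2 and CDH1 had no common direction. The sum of the cumulus and granulosa markers given above was higher in replicate 2 in each group, but its genes were split. Of those with a mean of at least 10, STAR, AMH and DCN were higher in replicate 2 in each group. COL1A1, CYP19A1 and COL1A2, the highest, had no common direction, nor had HSD3B1 and VCAN. The sum of the blood cell markers, nearly all HBA, was also higher in replicate 2 in each group, with 1010 and 1373, 1090 and 1423, and 1085 and 1410. The part of these shifts in the values of KHDC3L, PADI6 and OOEP was not tested. The labels do not say what the replicate number stands for.

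**Figure D3:**
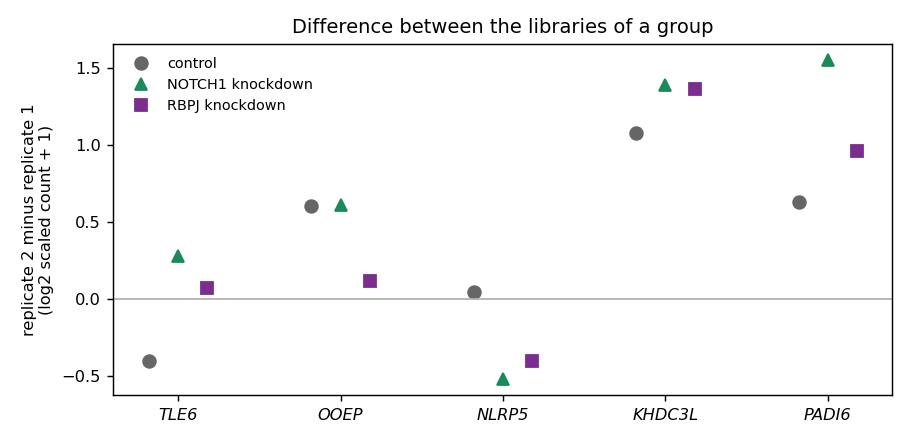
Difference between replicate 2 and replicate 1 of a group (vertical axis, log2(scaled count + 1) scale) for each member, with 1 point for each of the 3 groups and a line at 0. The points of KHDC3L lie between 1.08 and 1.39, those of PADI6 between 0.63 and 1.55 and those of OOEP between 0.12 and 0.61, all above 0, while NLRP5 and TLE6 have points on both sides.

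Over all 6 libraries the standard deviation of log2(scaled count + 1) was 0.90 for KHDC3L, 0.71 for PADI6, 0.44 for OOEP, 0.42 for NLRP5 and 0.18 for TLE6. The median of all genes tested was 0.18, close to TLE6, and 1.06% of them varied at least as much as KHDC3L. KHDC3L, OOEP and PADI6 went together, with Pearson r of 0.86 for KHDC3L and OOEP, 0.85 for KHDC3L and PADI6 and 0.83 for OOEP and PADI6. NLRP5 had r between -0.26 and 0.27 with the other members, and TLE6 between 0.01 and 0.45. These coefficients rest on 6 libraries that share groups and replicate numbers and are given as a description. KHDC3L and OOEP are next to each other in the RefSeq annotation of another cattle assembly (ARS-UCD2.0), with 0 genes between them, and PADI6 is on another chromosome.

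Genes with a pattern most like the mean of the 5 members were sought among 1121 other genes that varied enough, with a standard deviation of at least 0.5 on the log2 scale. KHDC3L and PADI6 weigh most in that mean because they vary most. The 8 with the highest Pearson r over the 6 libraries were RGS2, MGAT5B, PLEK2, CLIP3, CDKL2, CDKN2B, H1FOO and MOS, from 0.99 to 0.96. RGS2, a regulator of G protein signalling, had 14.8 and 38.9 in the control, 2.04 and 8.64 in the NOTCH1 knockdown and 3.85 and 12.4 in the RBPJ knockdown. MOS, the kinase that holds the mature oocyte in metaphase, had 29.6 and 130 in the control, 6.12 and 41.0 in the NOTCH1 knockdown and 8.46 and 36.0 in the RBPJ knockdown. Like KHDC3L, both had replicate 2 above replicate 1 in each group and each knockdown library below the control library of its number. Both were chosen by their likeness over these same libraries, so this shared pattern largely follows from the choice. Their values in replicate 1 of the knockdowns, from 2.04 to 8.46, stand for few reads. In all, 28 of the 1121 genes had r of at least 0.9 and 21 had r of at most -0.9.

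**Figure D4:**
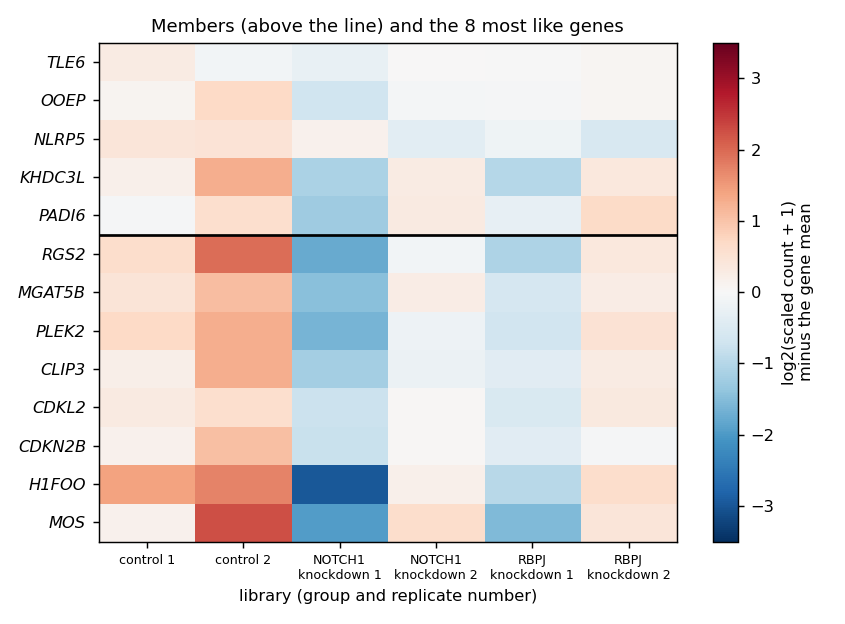
Heat map of log2(scaled count + 1) minus the mean of the gene over the 6 libraries (colour), with genes in rows and libraries in columns; the 5 members are above the line and the 8 genes most like their mean below it. The lowest colours are in replicate 1 of the NOTCH1 knockdown and the highest in replicate 2 of the control, for KHDC3L as for MOS and RGS2.

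Relatives of the members by sequence family were more often higher than lower by sign. Of 30 listed, 20 had a row and 14 were tested, with 10 higher and 4 lower by sign in the NOTCH1 knockdown (median log2 fold change 0.28) and 9 higher and 5 lower in the RBPJ knockdown (median 0.11). The first median was 0.14 without replicate 2 of the control and 0.19 without replicate 1 of the NOTCH1 knockdown, and the second was 0.0068 without replicate 2 of the control. None was called, with or without the block. The Groucho relatives of TLE6 were among the higher ones: TLE3 had 1123 and 1101 in the control, 1427 and 1316 in the NOTCH1 knockdown and 1394 and 1331 in the RBPJ knockdown (log2 fold changes 0.30 and 0.29, limma adjusted p = 0.566 and 0.983). TLE2 had a log2 fold change of 0.53 in the NOTCH1 knockdown (limma adjusted p = 0.606). PADI2, a relative of PADI6, had 111 and 131 in the control, 139 and 132 in the NOTCH1 knockdown and 86.9 and 86.2 in the RBPJ knockdown, a log2 fold change of -0.47 in the latter (limma adjusted p = 0.983). NLRP13, which lies near NLRP5 in the same annotation with 3 genes between them, had 23.2 and 19.6 in the control, 32.7 and 35.5 in the NOTCH1 knockdown and 16.9 and 23.6 in the RBPJ knockdown. NLRP8, with 1 gene between it and NLRP5, had 38.0 and 91.7 in the control, 33.7 and 37.7 in the NOTCH1 knockdown and 30.0 and 57.5 in the RBPJ knockdown, with lower values in the knockdowns that overlapped the control in the RBPJ group.

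Known partners of the complex and of its members, a list of 18 that includes 14-3-3 proteins, cofilin, UHRF1 and DNMT1, had 14 tested genes and none called with or without the block. Their median log2 fold change was 0.02 in the NOTCH1 knockdown and -0.01 in the RBPJ knockdown. PRKACA, a catalytic subunit of protein kinase A, which phosphorylates TLE6, had 287 and 398 in the control, 433 and 531 in the NOTCH1 knockdown and 465 and 444 in the RBPJ knockdown (log2 fold changes 0.50 and 0.43, limma adjusted p = 0.557 and 0.983). NLRP9, an oocyte NLRP protein on this list and on the family list, had 9.50 and 25.1 in the control, 4.09 and 7.54 in the NOTCH1 knockdown and 8.45 and 9.23 in the RBPJ knockdown (log2 fold change -1.33 in the NOTCH1 knockdown, limma adjusted p = 0.710). ZBED3, a zinc finger protein found with the complex in mice, was under the minimum mean at 1.02 to 4.32.

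Of 11 listed transcription factors that drive oocyte genes, 8 had a row and 7 were tested. FIGLA, which switches on oocyte genes including those of the complex, had 2.22 and 2.26 in the control, 1.06 and 2.86 in the NOTCH1 knockdown and 0 and 0 in the RBPJ knockdown, too few reads to compare. The tested factors had a median log2 fold change of 0.21 in the NOTCH1 knockdown and 0.34 in the RBPJ knockdown, and none was called. Both medians changed sign without replicate 1 of the control, to -0.11 and -0.061. GATA4 had 59.1 and 46.9 in the control, 74.6 and 77.5 in the NOTCH1 knockdown and 78.4 and 90.3 in the RBPJ knockdown (log2 fold changes 0.52 and 0.67, limma adjusted p = 0.722 and 0.983).

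Other oocyte and maternal transcripts had medians between the values of TLE6 and KHDC3L. Of 34 listed, 29 had a row and 22 were tested, with 19 lower by sign in each knockdown and medians of -0.59 (NOTCH1 knockdown) and -0.44 (RBPJ knockdown), where 48.9% and 50.3% of all genes tested were lower. The first median was -0.20 without replicate 1 of the NOTCH1 knockdown and -0.34 without replicate 2 of the control, and the second was -0.20 without replicate 2 of the control and -0.66 without its replicate 1. Among the 7 members of the list with a mean of 100 or more the medians were -0.097 and -0.13. With the block 4 of 22 fell in the NOTCH1 knockdown, where 0.406% of all genes tested were called downward, namely H1FOO (log2 fold change -2.95, limma adjusted p = 0.0154), the oocyte linker histone, MOS (-1.88, limma adjusted p = 0.0207), BTG4 (-1.98, limma adjusted p = 0.0239), an adaptor for messenger RNA decay, and TUT7 (-0.66, limma adjusted p = 0.0189), an enzyme that adds uridines to short poly(A) tails. H1FOO had 40.9 and 51.7 in the control against 1.04 and 17.1 in the NOTCH1 knockdown. BTG4 had 107 and 113 against 11.2 and 63.7. In the RBPJ knockdown H1FOO had 7.06 and 23.4 and BTG4 had 17.7 and 124, so that replicate 1 was the lower there too. For both, replicate 1 of the NOTCH1 knockdown was far below replicate 2, and its H1FOO value stands for about 1 read. These 4 calls were not tried in further settings with the block. Without the block none of the 22 passed, and none passed in the RBPJ knockdown with it. ZP3, a zona pellucida protein, had the smallest p there without the block, at 62.4 and 79.5 in the control against 43.1 and 31.8 in the RBPJ knockdown (log2 fold change -0.91, limma adjusted p = 0.983).

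Further lists cover the process that the complex is linked to in people, the upkeep of imprints. Among 13 tested genes of methylation maintenance and imprint protection, none passed without the block and 2 rose in the NOTCH1 knockdown with it, where 1.14% of all genes tested were called in either direction. These were DNMT3A (log2 fold change 0.48, limma adjusted p = 0.0147) and DNMT3B (0.81, limma adjusted p = 0.00361), both of which set new methylation marks. DNMT3A also passed with the block in the NOTCH1 knockdown against the RBPJ knockdown (0.51, limma adjusted p = 0.0225), where 0.124% of the genes did. The calls of DNMT3A and DNMT3B were not tried in further settings with the block. UHRF2, a relative of UHRF1, had 311 and 343 in the control, 220 and 213 in the NOTCH1 knockdown and 260 and 311 in the RBPJ knockdown, and did not pass with the block (limma adjusted p = 0.0674). DNMT3B had 1317 and 1027 in the control, 2724 and 1530 in the NOTCH1 knockdown and 1955 and 968 in the RBPJ knockdown, so that replicate 1 was higher in each group, opposite to KHDC3L. Of 25 imprinted genes 15 were tested and none was called with or without the block, with a median log2 fold change of -0.0089 in the NOTCH1 knockdown and 0.08 in the RBPJ knockdown, the latter -0.080 without replicate 1 of the control and -0.030 without its replicate 2. PLAGL1, an imprinted zinc finger protein, stood at 81.1 and 85.6 in the control, 53.7 and 23.1 in the NOTCH1 knockdown and 59.7 and 74.2 in the RBPJ knockdown (log2 fold change -1.21 in the NOTCH1 knockdown, limma adjusted p = 0.471). NNAT, an imprinted gene for a small membrane protein, differed the other way, at 29.9 and 20.7 in the control, 64.7 and 47.3 in the NOTCH1 knockdown and 28.7 and 24.4 in the RBPJ knockdown (log2 fold change 1.12 in the NOTCH1 knockdown, limma adjusted p = 0.513).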

How the data were processed

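Polyadenylated RNA of 6 embryo pools was sequenced. The submitters' processing notes list DESeq2, Salmon 0.14.1 and, as genome, ARS-UCD1.2, without saying what each was used for; the annotation is not given in the sources used here. The deposited values are 1 signal per gene and library, read counts scaled by the authors, as judged from the values. Of low values, 81.7% to 84.0% were within 0.1 of a whole multiple of the step of the library, too few to recover whole reads, so read numbers are approximate and no count test was run. The 2551 unnamed rows (6.20% to 7.22% of a total) were left out, and of repeated symbols the row with the highest mean was kept. Libraries are named by group and replicate number from the titles.

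log2(value + 1) of the 12070 named genes averaging 10 or more was fitted with limma 3.58.1 in R 4.3.3, as group means over all 6 libraries with a variance trend (3 residual degrees of freedom). An adjusted p (Benjamini-Hochberg, two-sided) below 0.05 counted as a call. An exact test of 2 libraries against 2 cannot go below 0.333. The fit without the block was tested on simulated counts that had no shift between replicate numbers. That test does not cover the calls made with the block. The labels do not state that replicates are separate embryo collections; p-values therefore reflect only how these libraries spread, which may be technical. Same-numbered libraries deviated together from their group means (Pearson r over genes 0.17, 0.20 and 0.21 for the 3 pairs of groups), so the fit with the replicate number as a block (2 residual degrees of freedom) is given where it changes a call; this pairing comes from the data, not from the labels.

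The members and lists were chosen with earlier results of these data known. Named genes are the members, the targets, the genes of each list called and otherwise up to 2 with the smallest p in a comparison, and the 8 most like genes, all as fixed by rule. FIGLA, ZBED3, KHDC4, NLRP3, NLRP8, NLRP14 and the order of the RefSeq genes were added after the values were seen. Levels are not compared between genes, as no transcript lengths were used, and coordinates and sequences are left out, since the RefSeq table used here is for ARS-UCD2.0 and lists genes only. Near-identical gene copies can share reads. Alternatives were other pseudocounts, filters, scalings and variance settings, only the groups compared, the block, and each library left out. Plots used Python 3.11.15 with matplotlib 3.10.9.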

Additional observations from a re-analysis of the deposited data

How the results depend on the processing

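For the 5 members in the 3 comparisons, 221 of 231 values under the other settings kept their direction and their side of the threshold. KHDC3L in the NOTCH1 knockdown became a call with the replicate block, and 9 values changed sign, all when 1 library was left out. In the NOTCH1 knockdown, PADI6 ran over omitted libraries from -1.52 to 0.034, positive without replicate 1 of that knockdown. In the RBPJ knockdown, PADI6 ran from -0.55 to 0.41, with 0.25 without replicate 2 of the control and 0.41 without replicate 1 of that knockdown, and TLE6 ran from -0.28 to 0.12, positive without replicate 1 of the control. Between the knockdowns, KHDC3L ran from -0.78 to 0.61 and was 0.59 without replicate 2 of the RBPJ knockdown. Without replicate 1 of the NOTCH1 knockdown the sign turned for KHDC3L (0.61), NLRP5 (from -0.0091 to 0.51 over omitted libraries), TLE6 (from -0.27 to 0.0045) and PADI6 (from -1.45 to 0.10). The median of the members ran from -1.08 to -0.43 (NOTCH1 knockdown), from -0.68 to -0.28 (RBPJ knockdown) and from -0.70 to 0.0045 (between the knockdowns) over omitted libraries. Genes called with the replicate block numbered 138, 12 and 15 in place of 0, 1 and 1, in that order. Without the variance trend there were 0 in all 3, and over omitted libraries 0 to 1, 1 to 3 and 0 to 3. With a minimum mean of 100, KHDC3L and TLE6 were left. Of 288 medians of the other lists under other settings, 20 moved by more than the spread between replicates. The cause of these changes was not tested. The replicate block changed no other call of a member, and depth limits NLRP5 and PADI6 most.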
